A study of Homo sapiens with 16 samples.

Results

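The nuclear genes for subunits of respiratory complexes I to IV were followed by RNA-seq in human keratinocytes in which YAP had been lost or gained. Rows of the count table were taken by gene name: NDUFA, NDUFB, NDUFC, NDUFS and NDUFV genes with a number, SDHA to SDHD, genes whose names begin with UQCR, and COX4 to COX8 genes with a subunit letter or COX4I1. This gave 66 of the 26229 listed genes, namely 37 of complex I, 4 of complex II, 9 of complex III and 16 of complex IV. NDUFA4 stands with complex I here by its name, although its protein is now placed in complex IV. The subunits encoded in mitochondrial DNA were not analysed here, so each complex was seen through its nuclear genes alone.

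The respiratory chain sits in the inner mitochondrial membrane. Complex I (NADH dehydrogenase) and complex II (succinate dehydrogenase, which is also an enzyme of the TCA cycle) pass electrons to ubiquinone, complex III passes them on to cytochrome c, and complex IV (cytochrome c oxidase) passes them to oxygen. Complexes I, III and IV pump protons as they do so, complex II does not, and ATP synthase, often called complex V, uses the gradient. Complexes I, III and IV are built from subunits of both genomes. Proliferating epidermal cells also draw on glycolysis, and both routes are active in cultured keratinocytes.

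YAP is the transcriptional co-activator at the end of the Hippo pathway. The study used the A431 line, from an epidermoid carcinoma and known for its extra copies of EGFR, and the HaCaT line of spontaneously immortalised skin keratinocytes, both grown in DMEM with 10% FCS. In each line, there was 1 library after a control siRNA (siCTRL), 3 after siRNA that targets YAP (siYAP), 1 after an empty expression vector without any siRNA, and 3 after a vector for YAP5SA, a constitutively active YAP1 mutant, again without any siRNA. The siRNAs were transfected in 2 rounds 24 h apart and RNA was analysed 48 h after the second round. For the vectors the labels give no time.

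Each control was thus a single library, and the spread between control cultures could not be measured. p-values here rest on the spread within the 4 groups of treated libraries. The paper's methods speak of biological triplicates, and the labels do not say whether these libraries came from separate cultures. Library totals lay between 18115624 and 46791673 counts, with a median of 26622174. Levels are in CPM, the counts of a gene relative to the library total, scaled by TMM factors. YAP1 lay at 94.3 CPM in the A431 siCTRL library and between 5.04 and 6.999 with siYAP, and at 254.3 and between 21.6 and 23.2 in HaCaT cells. With YAP5SA it lay between 1495 and 3245 CPM in A431 cells, against 124.3 with the empty vector, and between 7549 and 22250 in HaCaT cells, against 423. Of 7 keratinocyte markers all were above 1 CPM in at least 1 library, with sums of 2630 to 4490 CPM in A431 and 1940 to 6580 CPM in HaCaT cells. The 3 markers of simple epithelium (KRT8, KRT18 and KRT19) were too, with sums of 749 to 1100 CPM and 738 to 2700 CPM. Of the markers of other cells, 2 of 4 for leukocytes (CD68 and CD14) were above 1 CPM in at least 1 library, with sums of 83.1 to 172 CPM in A431 and 8.76 to 33.5 CPM in HaCaT cells, all 3 for endothelium, with sums of 3.89 to 33.8 and 1.19 to 59.2 CPM, 2 of 6 for fibroblasts, 2 of 4 for melanocytes and 1 of 4 for muscle, each with sums of at most 14.4 CPM. PTPRC, CD3E, COL1A2, COL3A1, PDGFRB, PDGFRA, TYR, DCT, ACTA1, MYH7 and CKM never reached 1 CPM. The HaCaT empty vector library stood apart in base composition. Its GC-rich genes lay 0.76 lower than its GC-poor genes on the log2 scale, relative to the mean of its line, and the other 15 lay between -0.29 and 0.30.

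Of the 66 genes, 62 had a mean above 10 counts per library and were tested. The other 4 were complex IV isoforms of other tissues. COX6A2, the form of heart and skeletal muscle, and COX7B2 had 0 counts in every library. COX7A1, likewise a muscle form, had 0 to 6 counts, and COX8C had 0 to 17. Their widely expressed counterparts were abundant. COX6A1 lay between 97.7 and 181.3 CPM, COX7A2 between 71.7 and 180.1, COX7B between 110.9 and 204.9, and COX8A between 55.6 and 156.8. COX6B2, a form best known from testis, passed at low levels of 0.255 to 12.5 CPM, against 56.96 to 80.7 CPM for COX6B1. UQCRHL, a near-identical copy of UQCRH, lay between 0 and 2.18 CPM, and reads could have been shared between the copies by the counting, so its values are uncertain.

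Levels can be compared between genes only per length of transcript. The length was that of the GENCODE transcript with the longest coding sequence, which need not be the form expressed here. On the scale of CPM per kilobase, UQCRH, the hinge protein of complex III, ranked 1 of 62 in A431 cells with a mean of 565 CPM per kilobase, followed by UQCRB of the same complex at 479.5 and COX6A1 at 268.2. In HaCaT cells UQCRB ranked 1 at 320.6 CPM per kilobase, COX4I1 ranked 2 at 306.2 and UQCRH was at 264. The transcripts were short, with a median length of 945 bases against 3084 bases over all genes matched.

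SDHD mRNA was lower after silencing of YAP in both lines. SDHD encodes 1 of the 2 membrane anchors of succinate dehydrogenase. In A431 cells it lay at 121.6 CPM in the siCTRL library and at 70.6, 77.1 and 61.3 CPM in the siYAP libraries, a mean of 69.7 ± 7.97 CPM (SD, n = 3). In HaCaT cells the siCTRL library held 298.2 CPM and the siYAP libraries 159, 152 and 134.1 CPM, a mean of 148.3 ± 12.8 CPM (SD, n = 3). The siYAP libraries were below both the siCTRL and the empty vector library of their line, the latter being 144.6 CPM in A431 and 284.7 CPM in HaCaT cells. The log2 fold change against siCTRL was -0.80 (SE 0.17, FDR = 0.0154) in A431 cells, -1.01 (SE 0.16, FDR = 0.00335) in HaCaT cells and -0.91 (SE 0.12, FDR = 0.000393) over both lines by the quasi-likelihood test of edgeR. In A431 cells the call was lost without siYAP replicate 3, where the FDR was 0.0545.

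The other 3 subunits of complex II were not called in either line. SDHA, the flavoprotein, lay at 107.5 CPM with siCTRL, against 126.3, 133.3 and 128.7 CPM with siYAP in A431 cells, and at 164.4 CPM against 152.3, 171.9 and 159 CPM in HaCaT cells. SDHB, the iron-sulphur subunit, lay at 121.5 CPM against 142.9, 135.8 and 134.2 CPM in A431 cells, and at 77.2 CPM against 74.5, 78.2 and 66.5 CPM in HaCaT cells. SDHC, the other anchor, lay at 126.8 CPM against 110.3, 103.7 and 106.2 CPM in A431 cells, and at 93.6 CPM against 79.4, 81.9 and 76.8 CPM in HaCaT cells. The siYAP libraries of SDHC were below siCTRL in both lines, with log2 fold changes of -0.25 and -0.24, and those of SDHA and SDHB were above siCTRL in A431 cells and on both sides of it in HaCaT cells.

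**Figure D1:**
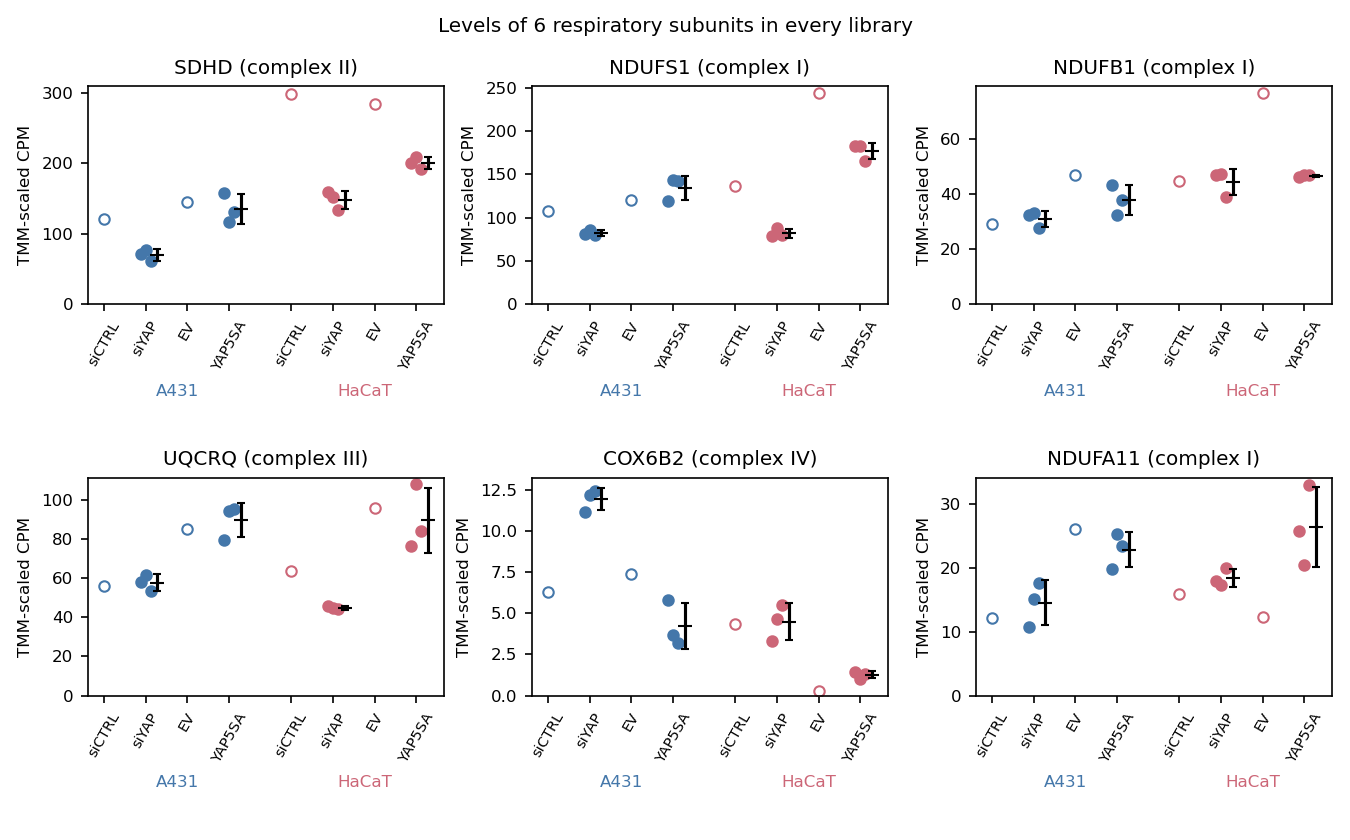
TMM-scaled CPM of 6 subunits in each of the 16 libraries, A431 in blue and HaCaT in red. Open points are the single control libraries, filled points the 3 treated libraries, and black bars their mean ± SD. SDHD was lower with siYAP than in both control libraries of each line, whereas NDUFS1, NDUFB1 and UQCRQ were higher in the HaCaT empty vector (EV) library than in the siCTRL library of that line.

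NDUFS1, the largest iron-sulphur subunit of complex I, was called lower in HaCaT cells. The siCTRL library held 137 CPM and the siYAP libraries 78.2, 87.8 and 80.02 CPM, which gave -0.74 on the log2 scale (SE 0.13, edgeR FDR = 0.00561). In A431 cells the siCTRL library held 107.1 CPM and the siYAP libraries 80.9, 85.9 and 79.5 CPM, and the log2 fold change of -0.38 was not called there, although all 3 libraries were below both controls. Over both lines it was -0.56 (SE 0.09, edgeR FDR = 0.0021). The HaCaT call was kept in all 20 alternative analyses.

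Over both lines a further pair of complex I genes was called lower. NDUFV3, a small subunit of the NADH-binding module, lay at 20.03 CPM with siCTRL, against 15.3, 19.3 and 16.6 CPM with siYAP in A431 cells, and at 33.8 CPM against 24.6, 19.4 and 22.0 CPM in HaCaT cells (log2 fold change -0.42, SE 0.12, edgeR FDR = 0.0404). NDUFA10, an accessory subunit, lay at 82.6 CPM against 64.8, 68.9 and 58.7 CPM, and at 114.6 CPM against 94.7, 101.9 and 87.1 CPM (log2 fold change -0.32, SE 0.10, edgeR FDR = 0.0465). For both genes the siYAP libraries were below siCTRL in each line, an order that 18.3% of all genes had. NDUFV3 kept its call in only 11 and NDUFA10 in only 7 of 18 alternative analyses.

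By count, siYAP called 1 of 62 subunits in A431 cells (SDHD, lower), where 5.6% of the 14673 tested genes were called and 3.78% called lower, and 2 of 62 in HaCaT cells (SDHD and NDUFS1, lower), where 5.67% were called and 3.3% called lower. Over both lines 4 of 62 were called, or 6.45%, against 13% of all genes. All were lower, and 7.68% of all genes were called lower. These shares were below or near those of all genes. The median log2 fold change of the 62 was 0.09 in A431 and -0.07 in HaCaT cells, against 0.03 over all tested genes in each. With the empty vector as the control the medians were -0.22 and -0.47. All 62 differences of the siYAP effect between the lines failed the test in edgeR, where 0.17% of all genes were called; 3 had an unadjusted p under 0.05, where 11.5% of all genes had, and DESeq2 called 0.

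The letters TTCTTAA and CTTCTTA in the 3' UTR, searched on the transcript strand, had been found over-represented among genes lower with siYAP in earlier work on these same libraries, so their occurrence here is a description without a test. The 3' UTR of SDHD holds 1 such match and that of NDUFS1 holds 2. The windows below are shown because these genes had the largest falls with siYAP, next to COX7B, which holds an overlapping pair and was not called. They come from GENCODE transcripts on GRCh38, with the match in capitals, at chr11:112095209-112095215 (+ strand) for SDHD, chr2:206123516-206123522 and chr2:206123490-206123496 (- strand) for NDUFS1, and chrX:77905469-77905476 (+ strand) for COX7B:
SDHD: ttgcctcccagCTTCTTAtaagactcaca
NDUFS1, the first: actcaaacctaCTTCTTAtttactccaaa
NDUFS1, the second: aaagcctgttgTTCTTAActgcaacatat
COX7B: atgctgtgcagCTTCTTAAataggtttttt

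The SDHD match begins 238 bases after the stop codon in a UTR of 824 bases, and the NDUFS1 matches 662 and 688 bases after it in a UTR of 1074 bases. Among tested subunits with a 3' UTR of at least 50 bases, 12 held a match: COX6C, COX7A2L, COX7B, COX7C, NDUFA5, NDUFA9, NDUFB3, NDUFS1, SDHC, SDHD, UQCR10 and UQCR11. Over both lines 9 of these 12 had a negative log2 fold change with siYAP, or 75%, with a median of -0.05, against 18 of 47 without a match, or 38.3%, with a median of 0.04. Over all tested genes the shares were 56.1% with and 43.8% without. The log2 fold changes of COX6C and COX7B, neither of which was called, were 0.31 and 0.05. By line the shares were unlike. In A431 cells 5 of the 12 and 17 of the 47 were negative, where 59% of all genes with a match and 43.6% of those without were, and in HaCaT cells 11 of the 12 and 27 of the 47, where 53% and 45.8% were. With YAP5SA 7 of the 12 and 23 of the 47 were negative in A431 cells, where 40.2% and 45.2% of all genes were, and 11 and 34 in HaCaT cells, where 59.2% and 46.1% were.

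The promoters were searched, on both strands, for GCGCATGC, the element of NRF1, and CCGGAAG, an element of ETS factors such as GABPA, since both factors are known activators of respiratory genes. Of the 66 genes 55 had a promoter in the RefSeq table (GRCh38.p14, from 250 bases before to 50 after the start site). The NRF1 element was present in 10, or 18.2%, against 3.68% of all 27305 genes with a promoter, and the ETS element in 15, or 27.3%, against 12.2%. COX5B, COX6A1, SDHB and SDHD held both. The windows below, each of at most 30 bases with the matches in capitals, are shown for the genes called lower with siYAP in HaCaT cells and for SDHB, which was not called. They lie at chr11:112086753-112086782 and chr11:112086785-112086813 (+ strand) for SDHD, chr2:206159584-206159612 (- strand) for NDUFS1, and chr1:17054214-17054243 and chr1:17054143-17054171 (- strand) for SDHB:
SDHD, NRF1 element read on both strands: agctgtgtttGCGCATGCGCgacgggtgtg
SDHD, ETS element: ccgcctctcgaCTTCCGGttcacccagca
NDUFS1, ETS element: ggctggggccaCTTCCGGcggaactgcgg
SDHB, NRF1 element: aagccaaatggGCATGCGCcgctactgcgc
SDHB, ETS element: cacccgggaaaCCGGAAGccgcctcccac

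The table lists 2 promoters for NDUFS1, and the other holds neither element. The SDHD matches begin 110 and 77 bases before the start site, and those of SDHB 200 and 128 bases before it. SDHD, which was called lower in both lines, and SDHB, which was not called, each hold an NRF1 and an ETS match, at different positions. Whether the elements bear on these levels was not tested.

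Gain of YAP5SA called none of the 62 subunits in A431 cells by edgeR, where 0% of all tested genes were called. At an unadjusted p under 0.05 there were 2 subunits, and 5.64% of all genes, and DESeq2 called 0 subunits. The median log2 fold change was 0.01, against 0.02 over all genes. SDHD lay at 144.6 CPM with the empty vector and 158.5, 116.6 and 130.9 CPM with YAP5SA, on both sides of the control. The median over the subunits was 0.30 with siCTRL in place of the empty vector as the control. Then 7 were called, all higher, where 6.67% of all genes were called.

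In HaCaT cells 10 of 62 subunits were called with YAP5SA, or 16.1%, where 13.6% of all genes were called. Higher were 2, where 6.99% of all genes were, and lower 8, where 6.64% were. The fold changes leaned to lower values: 47 of 62 were negative, or 75.8%, against 48.8% of all genes, and the median was -0.24 against 0.01. In 37 of 62 all 3 YAP5SA libraries were below the empty vector, where 33.9% of all genes had that order, and in 11 all were above it, where 32.1% had. The control of this comparison was the library that stood apart in base composition. With siCTRL as the control the lean turned round, to 23 of 62 negative and a median of 0.17, and 25 were called, 18 higher and 7 lower, where 44.5% of all genes were called.

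The 6 complex I genes called lower included NDUFC1, NDUFA5, NDUFB1, NDUFB5 and NDUFS1. NDUFC1, a subunit of the membrane arm, lay at 34.6 CPM with the empty vector and 19.9, 17.2 and 24.0 CPM with YAP5SA (log2 fold change -0.76, SE 0.17, edgeR FDR = 0.013). NDUFA5, a subunit of the matrix arm, lay at 159.2 CPM and 98.8, 93.2 and 90.3 CPM (-0.76, SE 0.12, edgeR FDR = 0.00516). Both were below the empty vector in all 3 libraries, yet the siCTRL library lay at 14.9 CPM for NDUFC1 and at 116 CPM for NDUFA5. NDUFC1 was thus above siCTRL with YAP5SA and its direction followed the control used, with 0.46 against siCTRL, while NDUFA5 was below both controls. NDUFB1 and NDUFS1 had log2 fold changes of -0.72 and -0.46. NDUFS1 with YAP5SA, at 182.4, 182.6 and 165.8 CPM, was below the 243.7 CPM of the empty vector but above the 137 CPM of siCTRL.

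Complex III had a pair of genes called lower in HaCaT cells. UQCRC2 lay at 360.6 CPM with the empty vector and at 258.3, 249.4 and 237.7 CPM with YAP5SA (log2 fold change -0.54, SE 0.13, edgeR FDR = 0.0215), below the 309.3 CPM of siCTRL as well. UQCRB, which binds ubiquinone, lay at 238.5 CPM and at 159.9, 182.9 and 162.9 CPM (-0.50, SE 0.15, edgeR FDR = 0.0453), and kept its call in 6 of 20 alternative analyses. Complex II had 0 genes called by edgeR, with 2 of 4 at an unadjusted p under 0.05, where 31.8% of all genes were. SDHD lay at 284.7 CPM with the empty vector and at 200.9, 208.6 and 192.1 CPM with YAP5SA (log2 fold change -0.51). These libraries were below the 298.2 CPM of siCTRL too. In HaCaT cells SDHD was thus below both controls with siYAP and with YAP5SA, although only the former was called.

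The 2 genes called higher lay low in the empty vector library. COX6B2 was at 0.255 CPM there and at 1.46, 1.03 and 1.33 CPM with YAP5SA (log2 fold change 2.30, SE 0.53, edgeR FDR = 0.0159). The cut-off of logCPM over 1 was applied to the average of all 16 libraries. COX6B2 passed it only through higher levels outside this comparison, such as 3.23 to 12.5 CPM in A431 cells. With siCTRL COX6B2 was at 4.37 CPM, so YAP5SA lay between the controls and the direction turned to -1.77 against siCTRL. NDUFA11, a subunit of the membrane arm whose transcript is GC-rich (62.7% G and C), was at 12.2 CPM with the empty vector and at 25.8, 20.5 and 33.1 CPM with YAP5SA (1.11, SE 0.30, edgeR FDR = 0.0286), above the 15.95 CPM of siCTRL too. Of the other 6 complex I genes with at least 58.6% G and C, none was called. The log2 fold changes were 1.42 for NDUFS7, 1.26 for NDUFB7 and 1.02 for NDUFS8, but 0.45 for NDUFA13, 0.09 for NDUFV1 and -0.27 for NDUFB10. With GC content and transcript length taken out of each library, NDUFA11 was at 0.53 and no longer called (edgeR FDR = 0.124), while COX6B2 was at 1.975 and still called (edgeR FDR = 0.0382). In that fit 3 of the 62 were called, 1 higher and 2 lower, where 6.63% of all genes were called, and the median was -0.05.

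**Figure D2:**
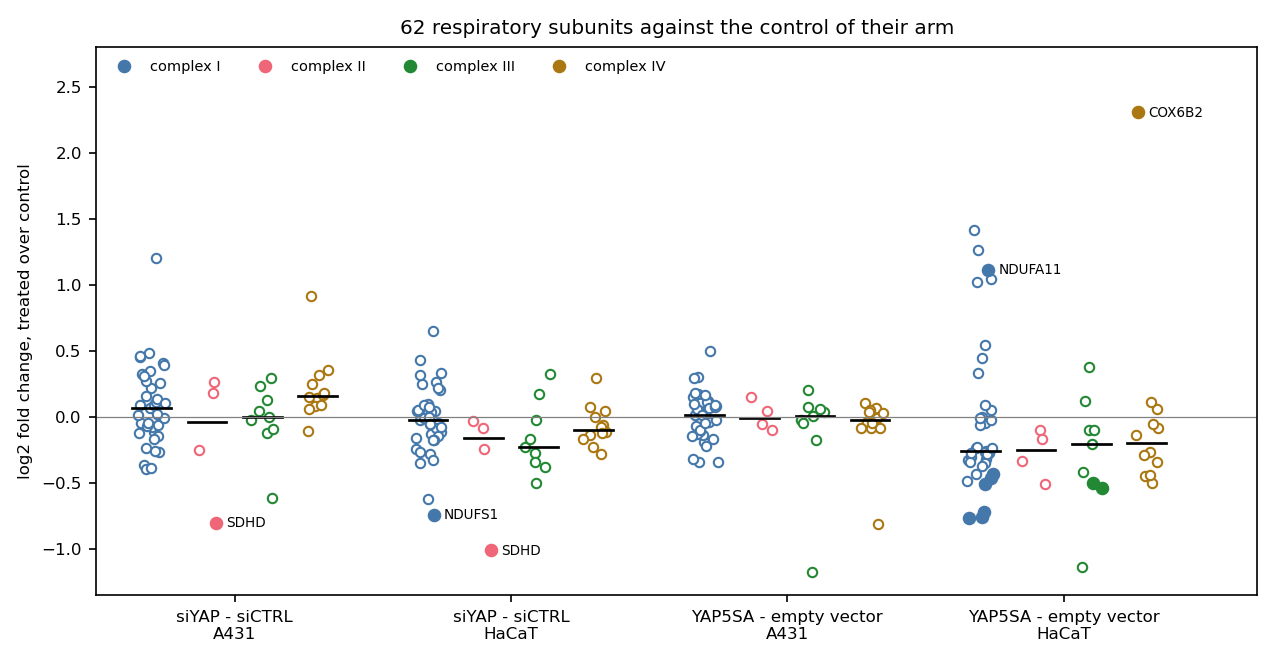
Log2 fold change of the 62 tested subunits against the single control library of their arm, by complex, with bars at the medians. Filled points passed the test with FDR below 0.05 and logCPM over 1. SDHD is the lowest point with siYAP in both lines, A431 cells show no called point with YAP5SA, and with YAP5SA in HaCaT cells 47 of 62 points lie below 0.

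Over both lines YAP5SA called 1 of 62 subunits, NDUFB1, an accessory subunit of complex I, lower by edgeR (log2 fold change -0.52, SE 0.12, FDR = 0.0461), where 2.04% of all genes were called and 0.661% called lower. It lay at 47.1 CPM with the empty vector and 43.4, 32.3 and 37.9 CPM with YAP5SA in A431 cells, and at 76.9 CPM and 46.3, 46.8 and 46.98 CPM in HaCaT cells. All YAP5SA libraries were below the empty vector, but above the siCTRL levels of 29.2 and 44.7 CPM. The call was kept in 7 of 19 alternative analyses. With same-numbered YAP5SA libraries of the lines taken as pairs, 3 subunits were called over both lines, all lower (NDUFB1, NDUFC1 and NDUFA5), where 9.39% of all genes were called. All 62 differences of the YAP5SA effect between the lines failed the test in edgeR, where 0.0886% of all genes were called. Of these 20 had an unadjusted p under 0.05 in edgeR, where 22.4% of all genes had. DESeq2 called 6 of the 62, and its share of all genes is not given here, so the edgeR shares are no measure for them. With the pairs 3 were called, named here after their values were seen, where 5.29% of all genes were called: NDUFA5 and NDUFA9, with differences of -0.87 and -0.83, and COX6B2, with 3.14.

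Set directly against each other, the treated libraries of the 2 arms differed more. In this comparison 3 libraries stood on each side, but the siRNA transfection and the vector differed along with YAP and cannot be told apart from it. In A431 cells 26 of 62 subunits were called, or 41.9%, against 34.6% of all genes. Higher with YAP5SA were 24, or 17 of complex I, 2 of complex II, 2 of complex III and 3 of complex IV, where 20% of all genes were higher, and lower were 2, where 14.6% were. In HaCaT cells 41 of 62 were called, or 66.1%, against 60%, with 33 higher, where 31.5% of all genes were, and 8 lower, where 28.5% were. Complex I had 22 of its 37 higher, complex II 3 of 4, complex III 4 of 9 and complex IV 4 of 12. The median log2 fold change was 0.22 in A431 and 0.28 in HaCaT cells, against -0.03 and -0.06 over all genes.

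NDUFS1 was lower with siYAP than with YAP5SA in every library of both lines, by 0.71 (SE 0.10, edgeR FDR = 0.000121) in A431 and 1.11 (SE 0.10, edgeR FDR = 4.09e-07) in HaCaT cells on the log2 scale. NDUFC2, of the membrane arm, lay at 25.8, 26.96 and 27.1 CPM with siYAP and 41.4, 47.2 and 46.4 CPM with YAP5SA in A431 cells. NDUFB2, likewise of the membrane arm, lay at 25.6, 21.5 and 21.97 CPM with siYAP and 35.1, 36.99 and 38.0 CPM with YAP5SA there. For both, the groups did not overlap, where 26.9% of all genes in A431 cells were higher with YAP5SA without overlap and 27.1% lower.

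In HaCaT cells the next largest complex I differences were those of NDUFB6 and NDUFA9. NDUFB6 lay at 21.5, 21.8 and 22.2 CPM with siYAP and 36.9, 43.2 and 41.6 CPM with YAP5SA, and NDUFA9, which sits where the 2 arms of the complex join, at 61.1, 60.99 and 54.4 CPM and 88.5, 120.7 and 107.5 CPM. SDHB lay at 74.5, 78.2 and 66.5 CPM and 110.7, 121.2 and 109 CPM. None of these groups overlapped, where 34.3% of all genes in HaCaT cells were higher with YAP5SA without overlap and 37.4% lower.

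SDHD differed by 0.96 (SE 0.12, edgeR FDR = 9.4e-05) in A431 and 0.44 (SE 0.12, edgeR FDR = 0.00638) in HaCaT cells, and SDHC by 0.34 and 0.28. UQCRQ, a small subunit of complex III, lay at 57.9, 61.9 and 53.6 CPM with siYAP and 79.8, 94.6 and 95.3 CPM with YAP5SA in A431 cells, and at 46.0, 44.8 and 44.1 CPM and 76.5, 108.4 and 84.3 CPM in HaCaT cells. UQCRC1, the other core protein, lay at 89.9, 86.5 and 87.7 CPM and at 112, 115.9 and 115 CPM in A431 cells. UQCR11 in HaCaT cells lay at 20.5, 17.5 and 16.7 CPM and at 25.6, 43.4 and 29.7 CPM, and UQCRB went the other way, from 248.4, 316.4 and 236.9 CPM with siYAP to 159.9, 182.9 and 162.9 CPM with YAP5SA.

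Complex IV moved in both directions. COX8A was higher with YAP5SA in both lines, at 122, 89.3 and 104.9 CPM with siYAP and 156.8, 140.2 and 143.1 CPM with YAP5SA in A431 cells, and at 65.4, 72.3 and 55.6 CPM and 108.2, 109.3 and 114.7 CPM in HaCaT cells. COX5B was higher in A431 cells, at 56.4, 57.2 and 56.97 CPM against 76.0, 72.8 and 72.0 CPM. COX7A2L, which takes part in joining complexes III and IV into supercomplexes, was lower with YAP5SA in HaCaT cells, at 105.2, 133.9 and 99.6 CPM against 66.7, 76.0 and 68.8 CPM. COX6B2 was lower with YAP5SA in both lines, at 11.2, 12.2 and 12.5 CPM against 5.81, 3.68 and 3.23 CPM in A431 cells and at 3.33, 4.67 and 5.52 CPM against 1.46, 1.03 and 1.33 CPM in HaCaT cells. The groups did not overlap for any of these, beside the shares of all genes without overlap given above for each line.

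The control libraries of the 2 arms differed in the same direction. The empty vector library was above the siCTRL library for 54 of 62 subunits in A431 cells, with a median log2 ratio of 0.27 against 0 over all genes, and for 44 of 62 in HaCaT cells, with a median of 0.24 against -0.03. Of the subunits called higher with YAP5SA than with siYAP, 23 of 24 were also higher in the empty vector than in the siCTRL library in A431 cells, and 28 of 33 in HaCaT cells. Called or not, the 2 differences had the same sign for 46 of 62 subunits in A431 cells, where 59.7% of all genes had. In HaCaT cells they had it for 47 of 62, where 78.5% of all genes had. Genes are not independent replicates, so as a description across 62 of them, Spearman's rho between the difference of the treated and that of the control libraries was 0.27 in A431 and 0.67 in HaCaT cells, against 0.29 and 0.75 over all tested genes. With each arm first set against its own control, 0 of 62 were called by edgeR in A431 and 3 in HaCaT cells, where 1.53% and 9% of all genes were called, and the medians were -0.09 in both lines. With GC content and length taken out, 29 were called in A431 cells, 15 higher and 14 lower, and 37 in HaCaT cells, 14 higher and 23 lower, and the medians were -0.01 and -0.10. In the main fits 34.6% and 60% of all genes were called. The shares with GC content and length taken out are not given here, so these counts are not read as a result about the subunits.

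**Figure D3:**
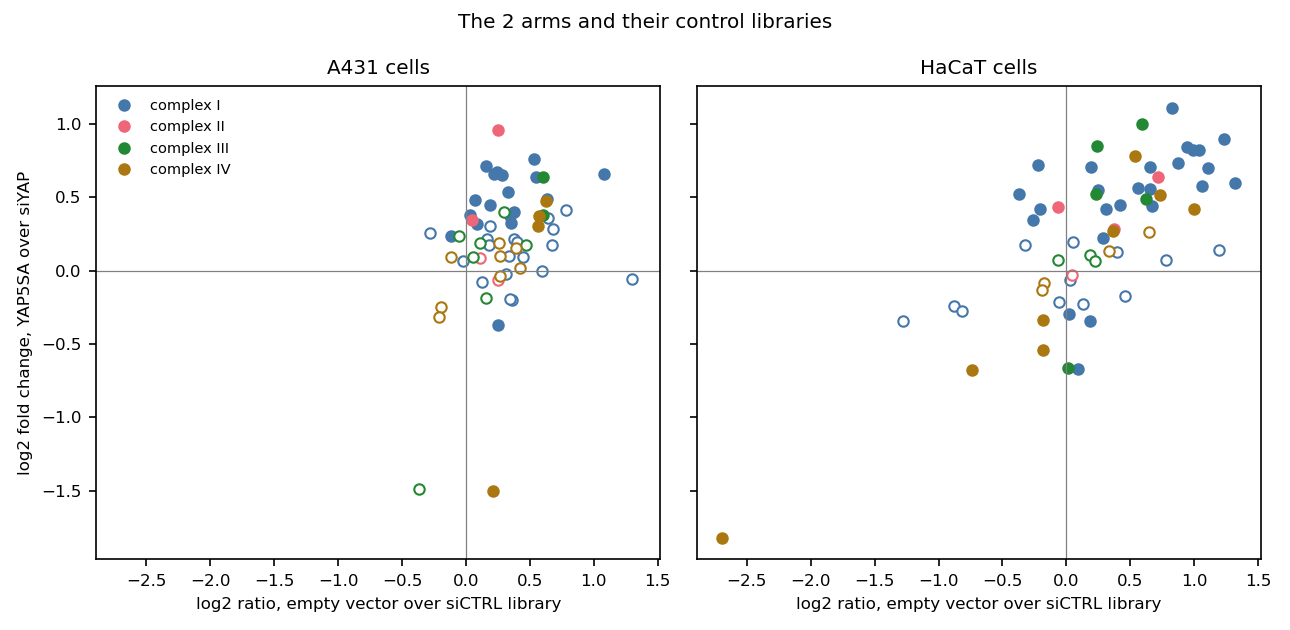
Each point is 1 subunit, with the log2 ratio of the empty vector to the siCTRL library on the x axis and the log2 fold change of YAP5SA over siYAP on the y axis. Filled points were called for the latter, and UQCRHL in HaCaT cells, at -4.64 on the y axis, is left out. Most called points lie above 0 on both axes, 23 of 24 higher calls in A431 and 28 of 33 in HaCaT cells.

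More subunits were called between the cell lines than in any other comparison. Over the 4 treatments 44 of 62 subunits were called, or 71%, where 60.6% of all genes were called. Higher in HaCaT cells were 17, where 27.5% of all genes were, and lower were 27, where 33.1% were. All 4 subunits of complex II were called, with SDHA and SDHD higher and SDHB and SDHC lower, so the subunits of 1 enzyme differed in opposite directions. The split moved to 28 higher and 20 lower with GC content and length taken out, and 38, 38 and 35 were called from the siYAP, the YAP5SA and the control libraries alone. For these fits the share of all genes is not given here, so their counts are not set against it.

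NDUFV2, an iron-sulphur subunit of the NADH-binding module, had the largest difference in complex I. Its level ranged from 104.5 to 148.7 CPM over the 8 A431 libraries, with a median of 133.1, and from 22.7 to 45.4 CPM in HaCaT cells, with a median of 33.8 (log2 fold change -1.93, SE 0.08, edgeR FDR = 3.23e-10). NDUFS5 ranged from 115.4 to 164 CPM in A431, with a median of 138.4, and from 34.4 to 78.7 CPM in HaCaT cells, with a median of 49.99 (-1.38, SE 0.08, edgeR FDR = 7.49e-09). NDUFB6 ranged from 56.7 to 78.9 CPM, with a median of 71.1, and from 20.4 to 48.8 CPM, with a median of 29.6 (-1.15, SE 0.07, edgeR FDR = 1.13e-08). The 8 libraries of 1 line did not overlap those of the other for any of the 3. Of all genes 12.2% were lower in HaCaT cells without overlap, and 10.3% higher. The largest difference in the other direction was that of NDUFC2, with 25.8 to 47.2 CPM in A431 and 54.4 to 108.9 CPM in HaCaT cells (1.07).

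Complex II showed the split by subunit. SDHD ranged from 61.3 to 158.5 CPM in A431, with a median of 119.1, and from 134.1 to 298.2 CPM in HaCaT cells, with a median of 196.5 (log2 fold change 0.98, SE 0.09, edgeR FDR = 3.53e-07). SDHA ranged from 107.5 to 133.3 CPM and from 133.5 to 173.3 CPM (0.42). SDHB ranged from 121.5 to 156 CPM and from 66.5 to 127.3 CPM (-0.49), and SDHC from 103.7 to 141.7 CPM and from 76.8 to 121.5 CPM (-0.37). The lines overlapped for SDHB, SDHC and SDHD and did not for SDHA.

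In complex III, UQCRH ranged from 297.3 to 398.6 CPM in A431, with a median of 336.5, and from 124.9 to 187.2 CPM in HaCaT cells, with a median of 159.2 (log2 fold change -1.03, SE 0.08, edgeR FDR = 1.38e-07). UQCRFS1, the Rieske iron-sulphur protein, ranged from 59.5 to 82.4 CPM, with a median of 72.5, and from 93.6 to 196.4 CPM, with a median of 132.7 (0.96, SE 0.08, edgeR FDR = 1.28e-07). UQCR10 ranged from 40.6 to 56.4 CPM and from 64.2 to 79.4 CPM (0.62). The lines did not overlap for these 3.

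In complex IV, COX6C ranged from 182 to 250.8 CPM in A431, with a median of 222.5, and from 78.8 to 158.9 CPM in HaCaT cells, with a median of 107.2 (log2 fold change -0.97, SE 0.09, edgeR FDR = 6.27e-07). COX4I1, the ubiquitous form of the regulatory subunit 4, ranged from 146 to 193.8 CPM, with a median of 169.3, and from 220.1 to 337 CPM, with a median of 261.4 (0.68, SE 0.07, edgeR FDR = 1.82e-06). COX6B2 ranged from 3.23 to 12.5 CPM and from 0.255 to 5.52 CPM (-2.12, SE 0.21, edgeR FDR = 8.06e-07), and its lines overlapped.

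**Figure D4:**
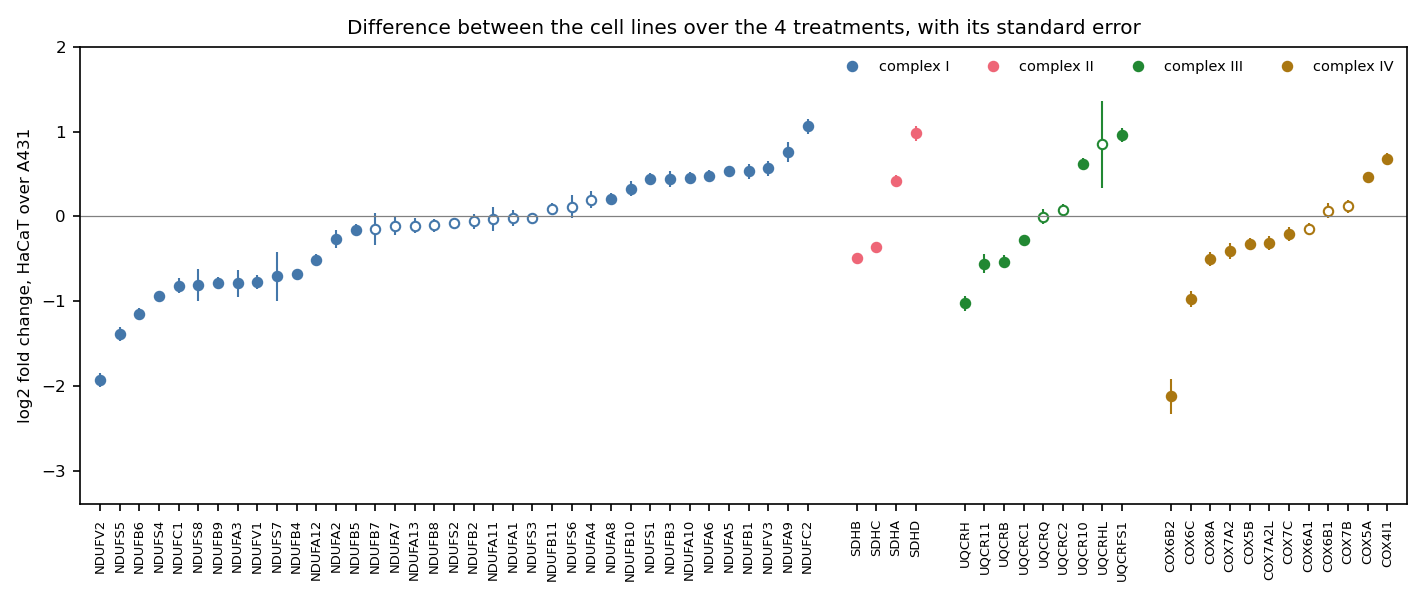
Log2 fold change of HaCaT over A431 cells for the 62 tested subunits, by complex and in order, with standard errors. Filled points were called, 17 higher and 27 lower. Each complex holds called genes on both sides of 0, from NDUFV2 at -1.93 to NDUFC2 at 1.07 in complex I.

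The differences between the lines ran with those of neighbouring genes on the chromosome. For each gene the median log2 fold change of the 20 nearest tested genes, 10 on either side in the GENCODE order, was taken. Of the 44 called subunits 36 had a neighbour median on their own side of 0, or 81.8%, against 68.1% of the 8112 called genes with neighbours. NDUFV2 on chromosome 18 had a neighbour median of -1.28, and 18 of its 20 neighbours were lower in HaCaT cells. NDUFB6 on chromosome 9 had -1.09 (18 of 20 lower), SDHD on chromosome 11 had 1.05 (2 of 20 lower), and UQCRFS1 on chromosome 19 had 1.48 (5 of 20 lower). UQCR11, also on chromosome 19, had -1.002 (18 of 20 lower) and a log2 fold change of its own of -0.56. For COX4I1, at 0.68, the neighbour median had the same sign but was near 0, at 0.01. The called subunits with a neighbour median on the other side of 0 were COX7C, NDUFA12, NDUFA2, NDUFA3, NDUFA6, NDUFA9, NDUFB10 and NDUFV3. NDUFA3, for example, was at -0.79 against 0.38, and NDUFA9 at 0.76 against -0.12. Over the 62 genes Spearman's rho between the 2 values was 0.66, against 0.36 over all genes, as a description over genes that share their chromosome regions. DNA copy number was not measured, and its part in these values was not tested.

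**Figure D5:**
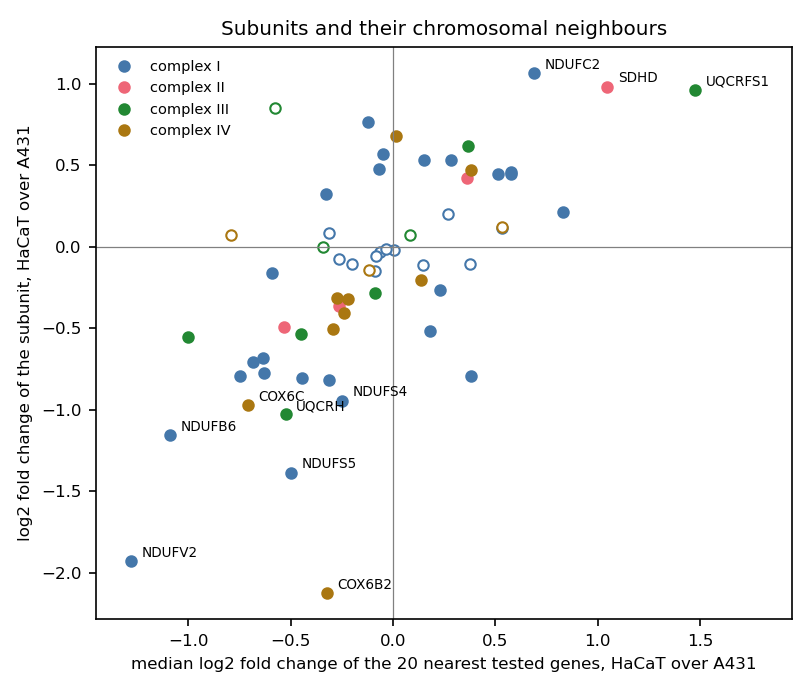
Log2 fold change of HaCaT over A431 cells of each tested subunit against the median of its 20 nearest tested genes. Filled points were called. Of the 44 called subunits 36 have the same sign on both axes, with NDUFV2 and NDUFB6 low and SDHD and UQCRFS1 high on both axes.

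Other genes of energy metabolism were taken by list. In ATP synthase all 18 listed genes were tested, and siYAP called 0 in A431 cells and 2 lower in HaCaT cells by edgeR, where 3.3% of all genes were lower in HaCaT cells. The 2 were ATP5O, a stalk subunit, at 127.9 CPM with siCTRL, against 73.0, 77.9 and 67.7 CPM with siYAP (log2 fold change -0.81), and ATP5G1, a subunit of the membrane ring, at 23.2 CPM and 15.2, 13.9 and 9.29 CPM (-0.86). ATP5O was also called lower over both lines (-0.60). With YAP5SA in HaCaT cells 1 was higher and 5 lower, against 6.99% and 6.64% of all genes. Set against siYAP, YAP5SA had 10 higher and 1 lower in A431 cells, where 20% of all genes were higher and 14.6% lower, and 13 higher and 2 lower in HaCaT cells, where 31.5% and 28.5% were. NDUFAB1, CYC1 and CYCS, which act in or between complexes I, III and IV but fall outside the naming rule, were all called higher with YAP5SA than with siYAP in each line. Cytochrome c itself, CYCS, lay at 240.2, 264 and 213.5 CPM with siYAP and 498, 706 and 611.1 CPM with YAP5SA in HaCaT cells, but at 149.8 CPM with siCTRL and 656.1 CPM with the empty vector.

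Of 42 tested assembly factors, siYAP over both lines called 3 higher and 6 lower, where 5.3% of all genes were higher and 7.68% lower. NDUFAF4, needed to build complex I, lay at 19.3 CPM with siCTRL, against 8.09, 8.601 and 7.40 CPM with siYAP in HaCaT cells (log2 fold change -1.27), and at 21.7 CPM and 15.97, 20.3 and 14.3 CPM in A431 cells, and was called lower over both lines (-0.81). SCO1, a copper carrier for complex IV, lay at 18.9 CPM and 29.2, 35.1 and 30.3 CPM in A431 cells and was called higher over both lines (0.65). UQCC2, of complex III assembly, was called lower in HaCaT cells (-0.93). YAP5SA over both lines called 0 of 42 by edgeR.

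Among 17 enzymes of the pyruvate dehydrogenase complex and the TCA cycle other than succinate dehydrogenase, siYAP over both lines called 1 higher and 2 lower, beside the same 5.3% and 7.68% of all genes. PDHX, which binds E3 to the pyruvate dehydrogenase complex, lay at 37.0 CPM with siCTRL, against 84.7, 81.4 and 76.0 CPM with siYAP in A431 cells, and at 19.3 CPM and 58.8, 65.0 and 52.9 CPM in HaCaT cells (1.37 over both lines). With the empty vector PDHX lay at 79.3 CPM in A431 and 99.6 CPM in HaCaT cells, above the siCTRL library of each line. IDH3A, a subunit of isocitrate dehydrogenase, was called lower (-0.45).

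Among 15 tested regulators of mitochondrial gene expression, siYAP over both lines called 2 lower, beside 7.68% of all genes. TFAM, which packages and transcribes mitochondrial DNA, lay at 198.5 CPM with siCTRL, against 122.6, 129.6 and 116.7 CPM with siYAP in A431 cells, and at 147.4 CPM and 116, 114.5 and 99.9 CPM in HaCaT cells (log2 fold change -0.56, SE 0.14, edgeR FDR = 0.0186), below the empty vector of both lines as well. PPRC1, a co-activator related to PGC-1, was lower with siYAP (-0.47) and higher with YAP5SA (0.86) over both lines, but its A431 siYAP libraries, at 52.5, 55.5 and 62.01 CPM, were near or above the siCTRL library at 52.8 CPM. PPARGC1A, which encodes PGC-1alpha, lay between 32.8 and 55.3 CPM in the A431 libraries, at 0 in 7 HaCaT libraries and at 0.127 CPM in the HaCaT empty vector library. Its calls as lower with YAP5SA in HaCaT cells (log2 fold change -4.93) and over both lines (-2.52) rested mainly on that last value. In A431 cells it lay at 39.4 CPM with the empty vector and at 42.6, 32.8 and 33.8 CPM with YAP5SA, on both sides of the control.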

How the data were processed

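Levels of mRNA were measured by paired-end Illumina RNA-seq in 16 libraries in 8 groups, taken from the sample labels. The authors deposited 1 table of estimated counts per gene, made with RSEM and not scaled or filtered; the submitters' processing notes name RSEM 1.2.11, hg19 and edgeR, while the paper's methods give a later RSEM release, which was not settled here. The methods describe biological triplicates, whereas the labels give 3 libraries to each treated group and 1 to each control group. All library columns were used.

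After rounding, these counts were modelled with edgeR 4.0.16 under R 4.3.3 (TMM factors from 0.9135 to 1.074, 8 group means in 1 model, 8 residual degrees of freedom, prior count 0.125, quasi-likelihood test, Benjamini-Hochberg FDR over all genes of a comparison). Only genes averaging more than 10 counts over the libraries were tested, 14673 in all. A gene is called where FDR is below 0.05 with logCPM over 1, following the thresholds of the paper. The SE was derived from the fold change and the root of F. A count of 3 corresponds to 0.063 to 0.164 CPM over the libraries, for counting error only. Alternatives were DESeq2 1.42.0, RLE size factors, other count filters, other uses of the controls, each line or treatment alone, a replicate block and leaving out each treated library; exchange of the control libraries and removal of GC content and length were added after the data were seen. Same-numbered YAP5SA libraries of the 2 lines deviated together from their group means across genes (r = 0.35, 0.137 and 0.134), so their numbers from the labels were also taken as pairs, although A431 replicate 2 correlated more with HaCaT replicate 3 (0.257). The scripts were tested on simulated data, and tables were summarised in Python 3.11.15 with pandas 2.3.3.

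Values in every library are given for up to 3 called subunits of each complex and comparison, the isoform pairs and the SDH genes, and up to 2 called genes of each other list and comparison could be named. Not every called member is reported here by name. The members, the lists and the 3' UTR letters were chosen with earlier results of these data known. GENCODE v29 (GRCh38) gave transcripts, neighbours and UTRs, and RefSeq the promoters; the count table holds no coordinates. Each pair of same-group libraries differed by more than sampling noise.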

Additional observations from a re-analysis of the deposited data

How the results depend on the processing

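Numbers of the 62 subunits called were set against each alternative. SDHD with siYAP was called in 19 of 20 alternatives in A431, 20 of 20 in HaCaT cells and 18 of 18 over both lines, and the difference between the lines gave 35 to 48 calls in 23 alternatives. For that difference 60.6% of all genes were called in the main fit, and the shares of its alternatives are not given here. With the control libraries exchanged, siYAP called 6 in A431 and 38 in HaCaT cells, where 10.8% and 51.2% of all genes were called. YAP5SA then called 7 and 25, where 6.67% and 44.5% were. With both control libraries of a line as 2 controls, siYAP called 13 in HaCaT cells, where 20% of all genes were called. Over both lines it called 11, where 20% were, and YAP5SA called 0, where 5.22% were. With GC content and length taken out, siYAP called 3 in A431 cells and 10 over both lines, where 7.23% and 17.1% of all genes were called. YAP5SA then called 3 in HaCaT cells, where 6.63% were, and 0 over both lines. DESeq2 called 18 for YAP5SA in HaCaT cells and 3 over both lines, where 18.9% and 7.24% of all genes were called. For the difference of the YAP5SA effect between the lines DESeq2 called 6. There RLE size factors and more than 10 counts in every library each gave 1. Shares of all genes in these fits of the difference are not given here. Fitted alone, the HaCaT line gave 2 for YAP5SA, where 4.51% of all genes were called. Without a count filter siYAP called 2 and YAP5SA 0 over both lines, where 7.35% and 1.5% of all genes were called. With each arm set first against its own control, the comparison of YAP5SA with siYAP called 0 in A431 and 3 in HaCaT cells. The causes of these changes were not tested. With a single library per control, its arm and its own properties cannot be told apart.

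The median over the subunits changed sign in several fits. With the control libraries exchanged it went from 0.09 to -0.218 for siYAP in A431 and from -0.245 to 0.17 for YAP5SA in HaCaT cells, and with 2 controls to -0.085 for siYAP in A431 cells, to -0.202 from 0.026 for siYAP and to 0.074 from -0.083 for YAP5SA over both lines. YAP5SA against siYAP went from 0.224 to -0.09 in A431 and from 0.276 to -0.093 in HaCaT cells with each arm against its own control first, and to -0.006 and -0.099 with GC content and length taken out, where the line difference went from -0.107 to 0.151. Named genes turned as well. Against siCTRL, YAP5SA in HaCaT cells gave 0.455 for NDUFC1 and -1.773 for COX6B2, and COX6B2 was at -0.802 with 2 controls. With each arm against its own control first, UQCRC1 was at -0.226, COX8A at -0.151 and COX5B at -0.205 in A431 cells, and NDUFB6 at -0.363, NDUFA9 at -0.107, SDHB at -0.084, SDHC at -0.093, COX6B2 at 2.259 and COX7A2L at 0.064 in HaCaT cells. With GC content and length taken out, COX8A was at -0.003 in A431 and SDHD at -0.009 in HaCaT cells for YAP5SA against siYAP.

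Leaving out 1 treated library gave 0 to 2 calls for siYAP in A431 cells (0 without siYAP replicate 3, 2 without A431 YAP5SA replicate 1), 2 to 4 in HaCaT cells (4 without HaCaT YAP5SA replicate 2) and 2 to 7 over both lines (2 without A431 siYAP replicate 1 or 3, A431 YAP5SA replicate 2 or 3, or HaCaT siYAP replicate 3, and 7 without HaCaT YAP5SA replicate 2). The share of all genes called moved too. In A431 cells it was 2.26% where 0 subunits were called and 8.61% where 2 were, and in HaCaT cells 8.01% where 4 were. Over both lines it was 8.87% to 11.6% where 2 were called and 16.6% where 7 were. For YAP5SA it gave 4 to 17 in HaCaT cells (4 without replicate 3, 17 without replicate 2 and 16 without A431 YAP5SA replicate 1), 0 to 4 over both lines (4 without A431 YAP5SA replicate 1, 2 without HaCaT YAP5SA replicate 1, 1 without HaCaT YAP5SA replicate 2 and 0 without any of the others) and 0 to 5 for the difference between the lines (5 without A431 YAP5SA replicate 1 or HaCaT YAP5SA replicate 2, 2 without HaCaT YAP5SA replicate 1). Libraries of other groups enter through the shared spread. The single controls cannot be left out.

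Of the same-numbered pairs, 3 of 3 between the YAP5SA libraries of the lines had a correlation above 0.1, and 2 of 3 between the siYAP libraries of the lines and 0 of 6 between the arms. A replicate block for the YAP5SA pairs, added after the data were seen, gave 3 calls for YAP5SA over both lines, 3 for the difference of its effect and 44 between the lines, and changed no other call named for these comparisons. A replicate block over all treated libraries, whose numbers did not pair, called 48 between the lines, and 29 and 42 for YAP5SA against siYAP in A431 and HaCaT cells, against 44, 26 and 41. What share of all genes that block called is not given here. In the HaCaT empty vector library 3 counts correspond to 0.0955 CPM, where UQCRHL lay at 0.159 and COX6B2 at 0.255 CPM.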
